A study of Schizosaccharomyces pombe with 37 samples.

Results

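Fission yeast cells that lack *swd22* were compared directly with cells that lack *dis2*, in total RNA. The comparison rests on 6 of the 37 samples of the series, the 3 *swd22Δ* and the 3 *dis2Δ* libraries. It covers the 5913 of 6996 listed features whose mean over these 6 libraries was at least 1 CPM (reads of a feature, scaled to the same total of reads counted on genes in every library). The study asked which changes in the cleavage and polyadenylation factor (CPF) allow small RNAs to silence a reporter gene, and these libraries measured what the mutations do to RNA levels when no hairpin makes such small RNAs. Both strains were of mating type h-, with the alleles *leu1-32*, *ura4-D18* and *ade6-704* and the reporter *trp1+::ade6+*, and each carried a kanMX cassette in place of 1 gene (*dis2D::kanMX* or *swd22D::kanMX*). The wild-type strain, whose levels are given beside those of the mutants, shares all of these alleles except the cassettes. Cultures were in exponential growth in YES medium at 30 °C. Each deletion was represented by 1 strain, so the 3 replicates of a deletion do not separate the deletion from anything else that strain carries.

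CPF cuts the nascent transcript at the polyadenylation signal and adds the poly(A) tail. Its phosphatase module removes phosphates from RNA polymerase II and from elongation factors at the ends of genes. Dis2 is a PP1 protein phosphatase, and in this module it sits with Ppn1, the scaffold that holds it, and with Swd22, a WD40 repeat protein. The RefSeq product name of Swd22 is that of a subunit of the Set1 histone methyltransferase complex. The study treats Swd22 as a subunit of the CPF phosphatase module, and membership of the Set1 complex was not tested here. Fission yeast has another PP1 catalytic subunit, Sds21, and Sds22 is a regulatory subunit of PP1.

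Between 1031965 and 2123320 reads were counted in each of the 6 libraries, and 3 reads, the floor used here, stood for 1.41 to 2.91 CPM. Without molecular identifiers, this floor speaks for counting error alone. The share of mitochondrial reads was 9.96% to 11.6% in *swd22Δ* and 13.2% to 14.7% in *dis2Δ*. The 3 libraries labelled *ppn1Δ* held *ppn1* at 76.3, 77.3 and 86.1 CPM, where the wild type lay between 62.8 and 79.3 CPM, so they go against their label. They enter below only in the shared estimate of the spread and among the other 21 libraries, and a fit of the 6 libraries alone called 184 features by limma. The labels do not say whether the replicates are separate cultures, so the p-values measure the spread between these libraries, which may be technical.

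In *swd22Δ* and *dis2Δ* the deleted genes matched the labels. No read was counted on *dis2* in the 3 *dis2Δ* libraries, while it lay at 202, 220 and 216 CPM in *swd22Δ*, at least 114-fold above a floor of 3 reads per library. No read was counted on *swd22* in *swd22Δ*, and it lay at 40.5, 36.3 and 39.7 CPM in *dis2Δ*, at least 17.8-fold above the floor. Each strain therefore kept the other partner at a wild-type level, since the wild-type libraries lay between 208 and 215 CPM for *dis2* and between 37.7 and 40.7 CPM for *swd22*. Of the remaining members of the module, *ppn1* lay at 66.2, 77.7 and 71.9 CPM in *dis2Δ* and at 109, 112 and 91.4 CPM in *swd22Δ*. These libraries did not overlap, and the log2 difference (*swd22Δ* minus *dis2Δ*, as throughout) was 0.53 ± 0.14 (SE, limma adjusted p = 0.0044), less than the 2-fold used below for a call. *sds22* lay between 51.8 and 81.6 CPM in *dis2Δ* and between 46.3 and 49.6 CPM in *swd22Δ* (log2 difference -0.50 ± 0.14, limma adjusted p = 0.0081). For *sds21*, *ssu72*, which encodes the CTD phosphatase of the module, and *pta1*, which encodes a subunit of the module, the libraries of both strains overlapped and the limma adjusted p was 0.42, 0.59 and 0.30.

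The largest set of differences was of RNAs that were low in *swd22Δ* and high in *dis2Δ*. By limma, 227 features were called (adjusted p under 0.05 and a difference of at least 2-fold on the log2(CPM + 1) scale), which is 3.84% of those tested. Of these, 173 were lower in *swd22Δ* (2.93%) and 54 were higher (0.913%), and in 205 of the 227 (3.47% of those tested) the 3 libraries of 1 strain all lay outside the range of the other, as they did in 2134 of all tested features (36.1%). Without the minimum of 2-fold, 1492 features (25.2%) passed the adjusted p. The quasi-likelihood test of edgeR on recovered reads called 137 features (2.32%), 94 lower (1.59%) and 43 higher (0.727%), and DESeq2 called 113 (1.91%), 75 lower (1.27%) and 38 higher (0.643%). The median difference over all tested features was -0.12, so a log2 difference near that value is that of the typical feature. With TMM scaling the median was 0.00, and the split became 128 lower and 69 higher. With quantile normalization it became 91 lower and 94 higher, so the excess of lower features depends on the scaling of the libraries.

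**Figure D1:**
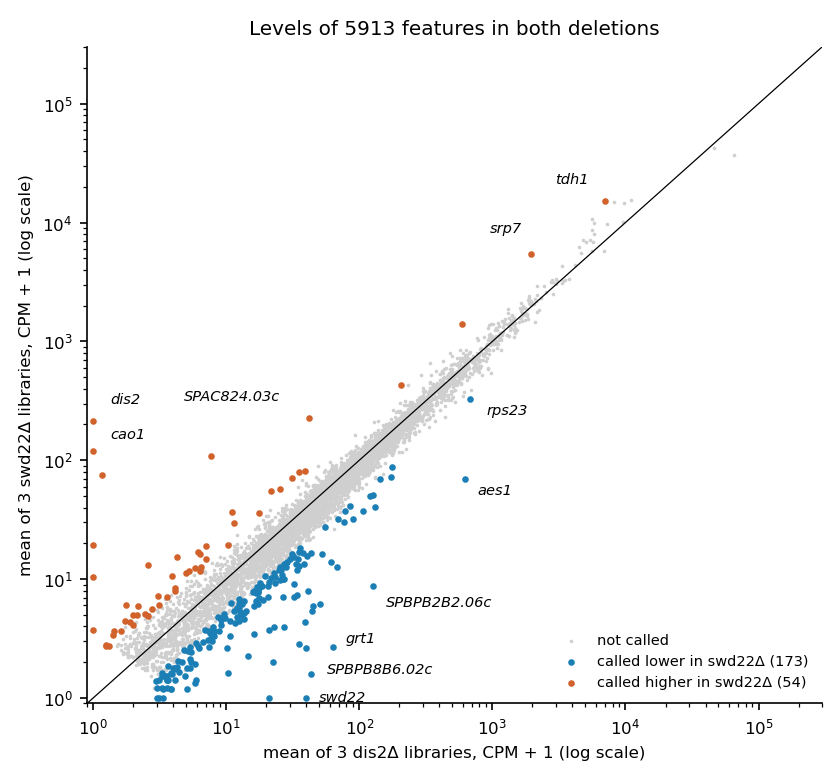
Mean level of each tested feature in *dis2Δ* (x axis) and in *swd22Δ* (y axis), both as CPM + 1 on log scales, with a line where the levels are equal. Blue points are the 173 features called lower in *swd22Δ* and orange points the 54 called higher, and *aes1*, *grt1* and SPBPB8B6.02c lie far below the line.

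The wild-type libraries give a level to set beside both deletions. Among the 173 lower features the wild-type mean on the log2(CPM + 1) scale was nearer to *dis2Δ* for 105 and nearer to *swd22Δ* for 68. Among the 54 higher features it was nearer to *dis2Δ* for 32 and to *swd22Δ* for 22. These counts describe levels and were not tested. The wild-type mean lay between those of the deletions for 134 of the 173 lower and 35 of the 54 higher features. The nearer mean thus does not sort most called features into RNAs changed in 1 deletion only.

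Most of the steepest falls stood side by side near the left end of chromosome II. Features are named there in the order of the RefSeq annotation (ASM294v3), and the stretch from SPNCRNA.287 to *mug14*, whose limits were chosen after the values were seen, holds 52 listed features. Of its 34 tested features, 25 were called lower in *swd22Δ* and 0 higher, against 148 lower of 5879 in the rest of the features (2.52%). The difference was negative in 33 of the 34, with a median of -1.59, and these 25 are 14.5% of all features called lower. No test was made of the stretch, because it was found from these differences. The sum of CPM over its 52 features was 1976, 2252 and 2157 in *dis2Δ* and 834, 754 and 830 in *swd22Δ*, with 879, 987 and 894 in the wild type. The *dis2Δ* libraries were thus above the wild type and the *swd22Δ* libraries slightly below it. A few features with many reads weigh heavily in this sum. The mean of *aes1* was 617 CPM in *dis2Δ*, 69.1 CPM in *swd22Δ* and 74.0 CPM in the wild type. *aat1* and *abc3*, named after their values were seen, were not called. Their means were 347 and 358 CPM in *dis2Δ*, 295 and 261 CPM in *swd22Δ* and 269 and 223 CPM in the wild type. In the other 21 libraries of the series, labelled as 7 further strains, the sum lay between 689 and 1166, below every *dis2Δ* library. The sums in *ssu72Δ* (689 to 843) and in the libraries labelled *ppn1Δ* (766 to 786) were close to those in *swd22Δ*.

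**Figure D2:**
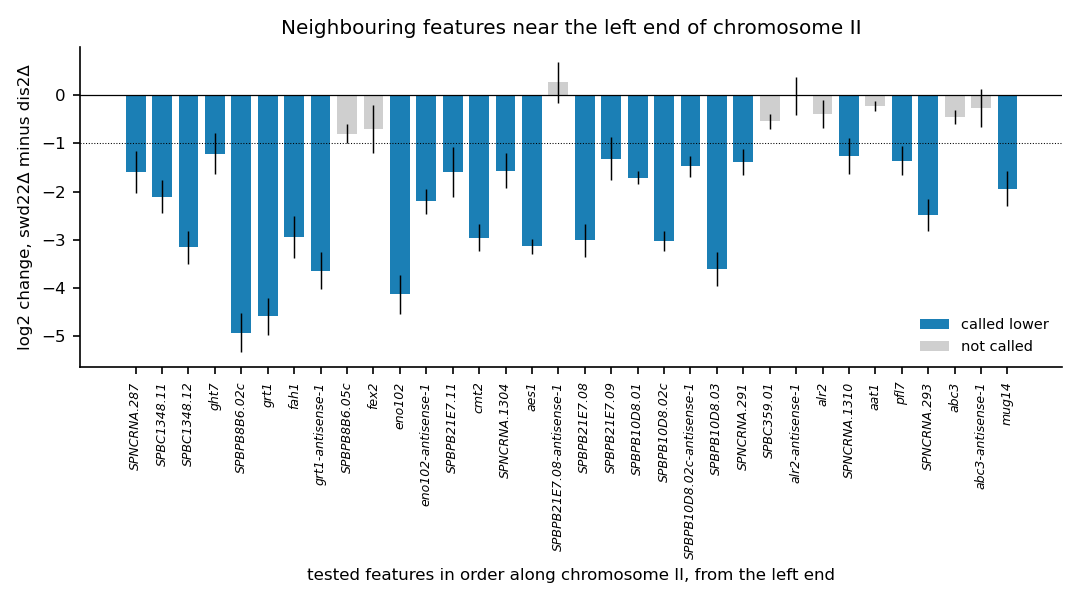
Log2 difference (*swd22Δ* minus *dis2Δ*) of the 34 tested features of the stretch, in their order along chromosome II from the left end. Bars are limma estimates with the SE as error bars, blue where the feature was called, and the dotted line marks 2-fold; 33 of the 34 bars point down.

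The sequences around the annotated starts of 3 of these genes are shown because the genes differ strongly and have separate annotated starts within the stretch. The sequences are from RefSeq (ASM294v3), 5′ to 3′ on the strand of the gene, from 250 bases before the annotated gene start through the first 50 bases of the gene. Capitals mark the letters TATAAA, read on either strand. The windows lie at chrII:46782-47081 (minus strand) for the urea transporter gene SPBPB8B6.02c, at chrII:51132-51431 (minus strand) for *grt1* and at chrII:69882-70181 (plus strand) for *aes1*.
SPBPB8B6.02c: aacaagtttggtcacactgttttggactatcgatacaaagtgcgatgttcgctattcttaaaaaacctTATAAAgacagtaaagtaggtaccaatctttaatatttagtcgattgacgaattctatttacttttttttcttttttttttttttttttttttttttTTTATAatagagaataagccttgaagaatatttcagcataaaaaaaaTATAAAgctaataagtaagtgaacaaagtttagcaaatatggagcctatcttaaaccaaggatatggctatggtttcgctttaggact
grt1: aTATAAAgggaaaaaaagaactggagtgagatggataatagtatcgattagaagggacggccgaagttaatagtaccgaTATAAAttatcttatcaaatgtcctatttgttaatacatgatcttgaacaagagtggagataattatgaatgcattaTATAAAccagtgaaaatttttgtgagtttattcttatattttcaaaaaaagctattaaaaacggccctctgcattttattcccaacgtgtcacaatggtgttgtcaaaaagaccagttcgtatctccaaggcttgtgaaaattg
aes1: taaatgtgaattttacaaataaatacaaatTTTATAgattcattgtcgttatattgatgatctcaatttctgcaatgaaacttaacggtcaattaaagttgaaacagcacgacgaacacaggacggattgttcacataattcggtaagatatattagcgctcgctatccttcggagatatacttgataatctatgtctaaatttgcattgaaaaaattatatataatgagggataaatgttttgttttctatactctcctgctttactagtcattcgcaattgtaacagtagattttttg
SPBPB8B6.02c and *grt1* each held 3 matches and *aes1* held 1. Windows of the same size were read for all 4889 protein-coding features tested and searched on both strands for this and 4 other short motifs. TATAAA was found in 9 of the 14 called protein-coding genes of the stretch (64.3%) and in 48.3% of all windows. GATAAG was found in 5 of the 14 (35.7%), namely *grt1*, *fah1*, *cmt2*, SPBPB10D8.02c and SPBPB21E7.09, and in 11.6% of all windows. The motif TGACGT was found in 0 of the 14 and in 5.85% of all windows. CCAAT was found in 6 of the 14 (42.9%) and in 42.2% of all windows. CGGTG was found in 1 of the 14 (7.14%) and in 17.2% of all windows. No motif searched contains another, though single matches may share letters. These matches are letters in a window and are not shown to be sites. The part of the window inside the gene begins with ATG for SPBPB8B6.02c and *grt1* but not for *aes1*. The windows thus need not lie at like distances from where transcription begins.

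Within the stretch, one group of genes was nearer to its wild-type level in *swd22Δ* than in *dis2Δ*. This was so, by the nearer mean, for 17 of the 25 called features. Some of them, such as *grt1* and SPBPB10D8.03, were below every wild-type library in *swd22Δ* as well as above every one in *dis2Δ*. SPBPB8B6.02c, annotated as a urea transporter, lay at 41.1, 52.3 and 32.9 CPM in *dis2Δ*, at 0, 0 and 1.74 CPM in *swd22Δ* and at or below 1.00 CPM in the wild type (log2 difference -4.92 ± 0.41, limma adjusted p = 4.5e-11). It was thus close to silent in *swd22Δ* and in the wild type. *grt1*, which encodes a transcription factor, lay at 54.0, 71.1 and 63.6 CPM in *dis2Δ* and at 1.91, 1.94 and 1.16 CPM in *swd22Δ*, with 8.53, 3.15 and 5.39 CPM in the wild type (-4.59 ± 0.38, limma adjusted p = 4.5e-11). The antisense RNA *grt1-antisense-1* went the same way, with 37.3, 36.3 and 29.2 CPM in *dis2Δ* and 1.27, 1.94 and 2.31 CPM in *swd22Δ*. *fah1*, an acetamidase gene that overlaps *grt1* on the opposite strand, was chosen after its values were seen. It lay at 14.8, 10.8 and 15.0 CPM in *dis2Δ* and at 3.18, 0 and 0.579 CPM in *swd22Δ*. Counting used the strand, so reads of overlapping partners on opposite strands were kept apart. *fah1* and *grt1-antisense-1* lie on the same strand, so this does not separate them from each other.

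*aes1*, annotated as a phenazine biosynthesis family protein, had the deepest coverage of the group. It lay at 534, 668 and 649 CPM in *dis2Δ* and at 64.3, 70.7 and 72.3 CPM in *swd22Δ*, and the wild type, at 77.5, 80.9 and 63.6 CPM, overlapped *swd22Δ* (-3.14 ± 0.16, limma adjusted p = 5.7e-17). The mean in *dis2Δ* was 8.93-fold that in *swd22Δ*, and in the other 21 libraries *aes1* reached at most 134 CPM. SPBC1348.12, annotated as a DNA-binding transcription factor, lay between 33.9 and 41.9 CPM in *dis2Δ* and between 2.91 and 4.05 CPM in *swd22Δ*. *cmt2*, a catechol O-methyltransferase gene, lay between 36.3 and 48.7 CPM in *dis2Δ* and between 3.47 and 7.64 CPM in *swd22Δ*. The pseudogene SPBPB21E7.08 lay between 33.4 and 52.4 CPM in *dis2Δ* and between 3.18 and 5.21 CPM in *swd22Δ*. Neither was high in *dis2Δ* alone. In *pfs2-F115H*, a strain with a point mutation in the CPF polymerase module, *cmt2* lay between 28.6 and 62.0 CPM and SPBPB21E7.08 between 14.5 and 28.5 CPM. In *ssu72Δ* they lay between 16.1 and 22.3 CPM and between 13.9 and 33.1 CPM, and every wild-type library was below these ranges, from 3.51 to 4.89 CPM for *cmt2* and with a middle value of 5.39 CPM for SPBPB21E7.08. The pseudogene SPBPB10D8.03 lay at 27.0, 18.4 and 19.5 CPM in *dis2Δ*, at 1.27, 0 and 1.74 CPM in *swd22Δ* and at 5.52, 3.78 and 2.96 CPM in the wild type (-3.60 ± 0.35).

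For the other 8 called features of the stretch the wild-type mean was nearer to *dis2Δ*. *eno102*, which encodes an enolase, the glycolytic enzyme that makes phosphoenolpyruvate, lay at 32.8, 42.4 and 41.2 CPM in *dis2Δ*, at 3.18, 0 and 1.74 CPM in *swd22Δ* and at 27.1, 21.0 and 21.8 CPM in the wild type (-4.13 ± 0.40, limma adjusted p = 1.5e-09). In the other 21 libraries it lay between 5.51 and 33.6 CPM, above each *swd22Δ* library. The arylsulfatase gene SPBPB10D8.02c lay between 47.9 and 51.3 CPM in *dis2Δ*, between 4.45 and 6.37 CPM in *swd22Δ* and between 21.5 and 24.3 CPM in the wild type (-3.03 ± 0.21). Next to it, and named after its values were seen, the cysteine transporter gene SPBPB10D8.01 lay at 125, 137 and 129 CPM in *dis2Δ*, 33.1, 38.8 and 46.3 CPM in *swd22Δ* and 112, 97.4 and 86.2 CPM in the wild type (-1.71 ± 0.14, limma adjusted p = 1.6e-11). The wild type thus lay between the deletions for each of these 3 features. At the inner border of the stretch, *pho841*, a phosphate transporter gene chosen after its values were seen, was not called (log2 difference 0.29 ± 0.09, limma adjusted p = 0.014).

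**Figure D3:**
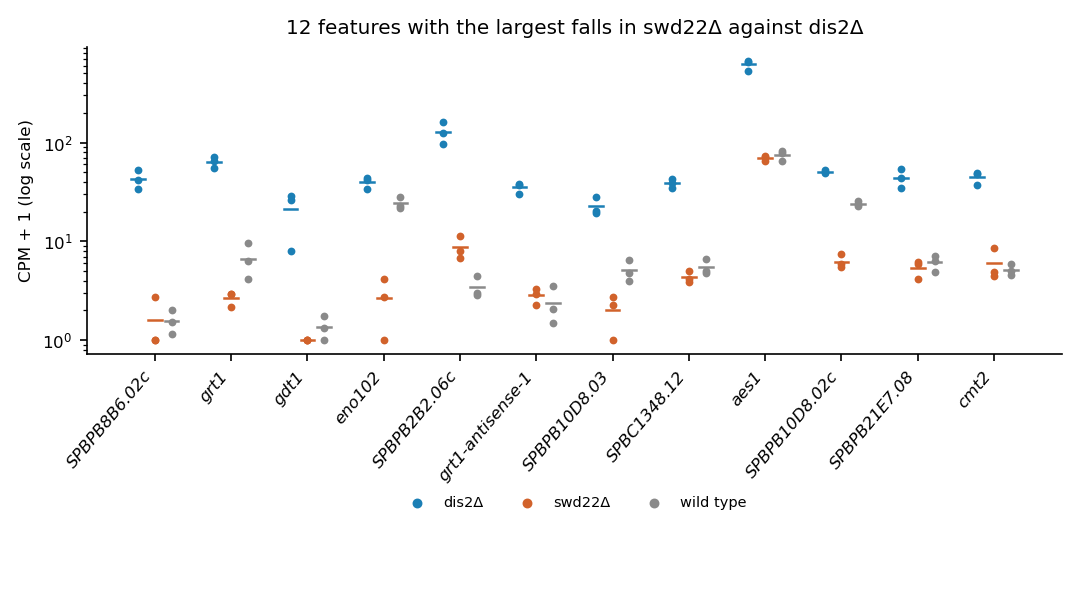
CPM + 1 (log scale) of the 12 features with the largest falls, in the 3 libraries each of *dis2Δ* (blue), *swd22Δ* (orange) and the wild type (grey), with a bar at each mean. The wild type lies near *swd22Δ* for SPBPB8B6.02c, *aes1* and *cmt2*, and between the deletions for *eno102* and SPBPB10D8.02c.

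The right end of chromosome II held a smaller cluster in the same direction. Among the last 50 tested features of the chromosome, 12 were called lower and 0 higher (24.0% lower). SPBPB2B2.06c, annotated as a phosphoprotein phosphatase, lay at 95.7, 123 and 160 CPM in *dis2Δ* and at 7.0, 5.81 and 10.4 CPM in *swd22Δ*, with 2.01, 1.89 and 3.50 CPM in the wild type (-3.87 ± 0.44, limma adjusted p = 4.0e-08). In the other 21 libraries it reached at most 33.6 CPM. The galactose genes lie in this cluster and were named after their values were seen. *gal7*, the uridylyltransferase gene, lay at 26.3, 41.0 and 26.9 CPM in *dis2Δ* and at 7.64, 5.81 and 11.0 CPM in *swd22Δ* (-1.84 ± 0.22, limma adjusted p = 2.1e-07). *gal10* (-1.51 ± 0.22), *gal1*, the galactokinase gene (-1.34 ± 0.17), and the neighbouring *pan5* (-1.29 ± 0.15) were called in the same direction. In *gal7* the wild type, at 15.6 to 17.2 CPM, lay between the deletions.

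Across all chromosome ends, taking 50 tested features at each of the 6 ends, 57 of 300 were called lower (19.0%) and 0 higher. In the rest of the 3 chromosomes 113 of 5555 were lower (2.03%) and 53 were higher. The left end of chromosome II contributed 25 of the 57, the right end of chromosome II 12, and the ends of chromosome I 8 and 6. Chromosome III had 3 at each end. Genes near chromosome ends often have close copies elsewhere. Only uniquely mapping reads were counted, so their levels are uncertain where copies share sequence.

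*gdt1*, near the right end of chromosome I, was listed among the largest falls but varied within strains. It lay at 27.6, 7.06 and 25.5 CPM in *dis2Δ* and at 0 in each *swd22Δ* library, at least 9.18-fold lower by the floor of 3 reads per library. The wild type was at or below 0.752 CPM. In *yth1-R59C*, *pfs2-F115H* and PAS-T4G, a changed polyadenylation signal of the reporter, each library lay between 78.7 and 94.2 CPM, above every *dis2Δ* library. In PAS-T4C, another change of that signal, *gdt1* lay at 0, 24.8 and 48.2 CPM, so its level differed between replicates of 1 strain.

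**Figure D4:**
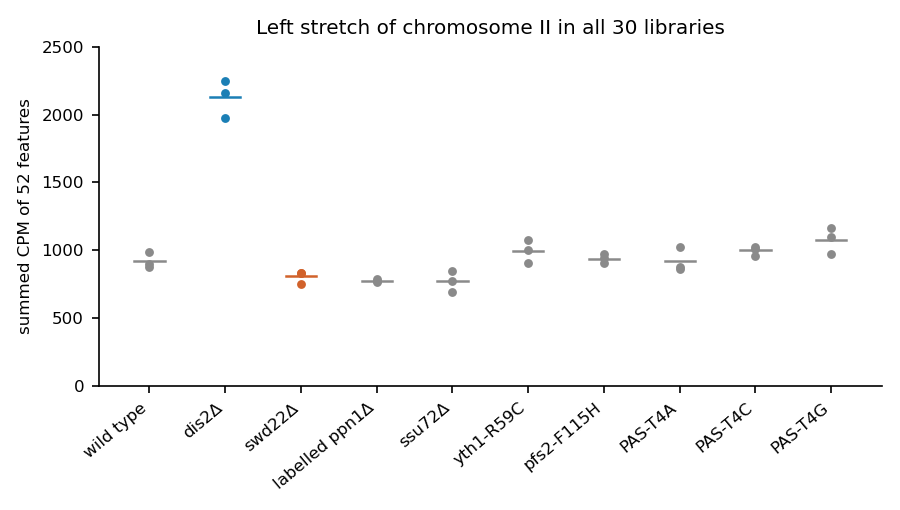
Sum of CPM over the 52 listed features of the chromosome II stretch in each of the 30 libraries, by strain, with a bar at each mean. The 3 *dis2Δ* libraries lie between 1976 and 2252 and every other library at or below 1166.

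The largest rises were of RNAs missing in *dis2Δ*. The copper amine oxidase gene *cao1* had 0 reads in all *dis2Δ* libraries and lay at 112, 126 and 114.6 CPM in *swd22Δ*, at least 63.1-fold higher, and at 137 to 162 CPM in the wild type. The neighbour *cbm1*, which encodes a protein with a cellulose-binding domain, had 1 read in the 3 *dis2Δ* libraries together and lay at 55.4, 112 and 55.6 CPM in *swd22Δ*. The noncoding RNAs SPNCRNA.861 and SPNCRNA.862, which follow, also had 0 reads in *dis2Δ*. SPNCRNA.863, the last of these 5 consecutive features, lay at 8.35, 8.01 and 3.74 CPM in *dis2Δ* and at 97.4, 95.9 and 128 CPM in *swd22Δ*. On one side of the segment lies the transposon *Tf2-3*. On the other side SPAPB2C8.01, named after its values were seen, lay between 177 and 216 CPM in *dis2Δ* and between 237 and 279 CPM in *swd22Δ* (log2 difference 0.40 ± 0.08). The loss of reads was thus bounded to neighbouring features in the 1 *dis2Δ* strain. The summed CPM of the 5 features lay between 344 and 547 in the other 21 libraries, labelled as 7 further strains. Whether the segment is present in the DNA of that strain was not tested.

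SPAC824.03c, an uncharacterized gene beside *swd22*, lay at 46.2, 42.9 and 32.9 CPM in *dis2Δ* and at 212, 251 and 220 CPM in *swd22Δ*, with 31.4 to 39.9 CPM in the wild type (2.47 ± 0.14, limma adjusted p = 4.0e-16). The annotated antisense RNA over the deleted gene, SPAC824.04-antisense-1, lay between 2.57 and 4.49 CPM in *dis2Δ* and between 12.6 and 15.3 CPM in *swd22Δ*. Both are on the strand opposite to *swd22*, and the kanMX cassette stands at this place in *swd22Δ* only. Its part in these values cannot be told apart from that of the loss of Swd22. With a pseudocount of 0.1 CPM the antisense RNA was not called (2.12). Beside *dis2*, the gene *hom6*, chosen after its values were seen, differed by 0.15 ± 0.09 on the log2 scale (limma adjusted p = 0.22).

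Antisense RNAs made up a large part of the remaining rises. Of 477 antisense RNAs tested, 19 were called higher and 14 lower, 6.92% in all against 3.84% of all features. Of features of any class, 11.5% were called at a mean of 1 to 5 CPM and 9.13% at 5 to 10 CPM. The shares of noncoding classes were not compared at like levels. *nup211-antisense-1*, antisense to a nuclear pore gene, lay at 9.63, 11.8 and 8.98 CPM in *dis2Δ* and at 36.9, 36.8 and 32.4 CPM in *swd22Δ*, with 4.26 to 4.58 CPM in the wild type (1.71 ± 0.32, limma adjusted p = 1.8e-04). The sense mRNA *nup211*, given as the partner and chosen after its values were seen, differed by -0.55 ± 0.08, in the opposite direction and by less than 2-fold. SPAC19B12.01-antisense-1 lay between 0.749 and 2.57 CPM in *dis2Δ* and between 10.2 and 13.3 CPM in *swd22Δ* (2.39 ± 0.35). *rad50-antisense-1* lay between 0.642 and 0.942 CPM in *dis2Δ* and between 3.88 and 6.37 CPM in *swd22Δ*. *atd3-antisense-1* lay between 2.99 and 9.63 CPM and between 16.5 and 19.1 CPM in the same order. The first and the last of these antisense RNAs were thus above the floor of 3 reads in every library, while the *dis2Δ* levels of *rad50-antisense-1* were below it. SPAC19B12.01-antisense-1 had 8 reads in the 3 *dis2Δ* libraries together, and its lowest level there, 0.749 CPM, was also below the floor. Of 30 called antisense RNAs whose sense partner was tested, the partner was called in the same direction for 5 and in the opposite direction for 2. The unassigned noncoding RNA SPNCRNA.545 had 0 reads in *dis2Δ* and between 1.91 and 3.88 CPM in *swd22Δ*, at least 1.45-fold higher. These levels were not all particular to *swd22Δ*. In *ssu72Δ* SPAC19B12.01-antisense-1 lay between 7.36 and 10.7 CPM and *rad50-antisense-1* between 4.87 and 6.66 CPM. There *atd3-antisense-1* lay between 18.5 and 23.7 CPM and SPNCRNA.545 between 1.46 and 4.41 CPM. The wild type reached at most 5.12, 2.26, 9.28 and 1.08 CPM in the same order. *nup211-antisense-1* reached 25.3 CPM in *ssu72Δ*, below every *swd22Δ* library. Other noncoding RNAs were mostly lower in *swd22Δ* (43 lower and 10 higher of 440, 12% called).

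Small nucleolar RNAs moved in both directions, 5 higher and 4 lower of 36 tested (25.0% called, against 3.84% of all features). They guide the modification and cutting of ribosomal RNA precursors. All small RNAs of this paragraph were named after their values were seen. *snR30*, which acts in early ribosomal RNA processing, lay at 649, 660 and 447 CPM in *dis2Δ* and at 1241, 1417 and 1578 CPM in *swd22Δ*, with 911 to 1161 CPM in the wild type (1.28 ± 0.25, limma adjusted p = 2.7e-04). *snoU14* lay between 17.97 and 28.9 CPM in *dis2Δ* and between 55.4 and 58.1 CPM in *swd22Δ* (1.21 ± 0.20). In the other direction, *snR98* lay at 46.2, 36.3 and 43.4 CPM in *dis2Δ* and at 9.55, 22.3 and 15.0 CPM in *swd22Δ* (-1.44 ± 0.29, limma adjusted p = 4.1e-04). *snR95* lay between 153 and 198 CPM in *dis2Δ* and between 82.4 and 94.3 CPM in *swd22Δ*. *srp7*, the RNA of the signal recognition particle, lay at 2014, 2268 and 1590 CPM in *dis2Δ* and at 4906, 5639 and 5886 CPM in *swd22Δ*, with 3244 to 4180 CPM in the wild type (1.495 ± 0.31, limma adjusted p = 5.6e-04). The wild type lay between the deletions for *snR30* and *srp7*, and with *dis2Δ* for *snR95*.

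Of the glycolytic mRNAs, 11 of 18 passed the adjusted p as higher in *swd22Δ*, 1 of them by 2-fold or more, and 5 did not pass in either direction. A further 2 passed as lower, where the shares over all features were 5.46% higher and 19.8% lower. The median log2 difference over this list for glycolysis and fermentation was 0.36 against -0.12 for all features. With the 2-fold minimum, *tdh1* was called higher and *eno102* lower. *tdh1*, which encodes glyceraldehyde-3-phosphate dehydrogenase, lay at 6960, 7286 and 6804 CPM in *dis2Δ* and at 16975, 14889 and 13626 CPM in *swd22Δ*, with 8968, 8987 and 10902 CPM in the wild type (1.11 ± 0.15, limma adjusted p = 1.9e-06). The mean in *swd22Δ* was 2.16-fold that in *dis2Δ*, and the wild type lay between them. The following were named after their values were seen. *pgk1*, phosphoglycerate kinase, differed by 0.91 ± 0.15, *eno101*, the major enolase, by 0.86 ± 0.10, *pyk1*, pyruvate kinase, by 0.61 ± 0.09, *fba1*, aldolase, by 0.58 ± 0.08 and *gpm1*, phosphoglycerate mutase, by 0.47 ± 0.08, each past the adjusted p and below 2-fold. The enolase genes thus differed in opposite directions. With quantile normalization only 5 members passed as higher and 1 as lower, with a median of 0.12, and *tdh1* differed by 0.37.

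The hexose transporter gene *ght8* lay at 232, 163 and 217 CPM in *dis2Δ* and at 471, 386 and 432 CPM in *swd22Δ*, which overlapped the wild type at 416 to 503 CPM (1.08 ± 0.11, limma adjusted p = 3.0e-09). Without *dis2Δ* replicate 2 the difference was 0.93, below 2-fold. *ght6* lay between 1.28 and 5.24 CPM in *dis2Δ* and at or below 0.969 CPM in *swd22Δ*, and *ght7*, at the left end of chromosome II, between 2.57 and 7.54 CPM in *dis2Δ* and between 0.969 and 1.27 CPM in *swd22Δ*. Both were called lower, at levels of a few reads, and the call of *ght7* (-1.22 ± 0.42) was lost by edgeR and without *dis2Δ* replicate 2 (-0.83) or any 1 of the *swd22Δ* libraries (-1.27 to -1.16). These 3 were the called genes of the 14 tested for hexose transport and glucose repression (21.4%, against 3.84% of all features), with a median over the list of -0.11.

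Of 26 tested core environmental stress genes, 2 were called higher and 1 lower, where 0.913% and 2.93% of all features were, and the median was 0.23. Regardless of size, 10 passed as higher and 2 as lower, against 5.46% and 19.8% of all features. *hsp9*, a small heat shock protein gene, lay at 34.7, 42.4 and 26.2 CPM in *dis2Δ* and at 84.0, 76.6 and 77.0 CPM in *swd22Δ* (1.203 ± 0.27, limma adjusted p = 0.0016). *rds1* lay between 10.9 and 19.8 CPM in *dis2Δ*, between 27.2 and 44.6 CPM in *swd22Δ* and between 42.7 and 85.6 CPM in the wild type (1.05 ± 0.26). Its *dis2Δ* libraries were thus below those of the other strains. It fell under 2-fold without *swd22Δ* replicate 2 (0.86) or *dis2Δ* replicate 1 (0.79), and edgeR gave an adjusted p of 0.056. *cta3*, which encodes a cation-transporting ATPase, was lower in *swd22Δ*, with 3.18, 7.75 and 9.26 CPM against 14.8, 21.7 and 12.7 CPM in *dis2Δ* (-1.24 ± 0.41, limma adjusted p = 0.024). That call was lost without *swd22Δ* replicate 1 (-0.84) or *dis2Δ* replicate 2 (-1.03), and with quantile scaling (-1.003). In the wild type *cta3* lay between 1.58 and 2.42 CPM, below every library of both deletions.

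A few genes of mating and early meiosis were lower in *swd22Δ*. Of 23 tested members of the list for mating and pheromone response, 3 were called lower and 0 higher (13.0%, against 2.93% of all features called lower). Regardless of size, 7 passed as lower and 0 as higher, where 19.8% of all features passed as lower. The median over the list, -0.15, was close to that of all features. *mei2*, the RNA-binding protein that starts meiosis, lay at 37.9, 40.03 and 35.2 CPM in *dis2Δ* and at 9.55, 13.6 and 13.9 CPM in *swd22Δ*, with 24.8 to 27.1 CPM in the wild type (-1.55 ± 0.28, limma adjusted p = 8.7e-05). *ste4*, an adaptor of the pheromone MAP kinase cascade, lay at 14.1, 17.4 and 21.0 CPM in *dis2Δ* and at 3.18, 9.69 and 10.4 CPM in *swd22Δ* (-1.19 ± 0.29), and was not called without *swd22Δ* replicate 1 (-0.73). *isp3*, a spore wall gene, lay between 7.54 and 10.3 CPM in *dis2Δ* and between 0.636 and 2.31 CPM in *swd22Δ* (-2.01 ± 0.41). The wild type lay between the deletions for *mei2* and *isp3*. Meiotic mRNAs that Mmi1 removes in growing cells had 0 of 14 tested members called by limma, while 1 passed as higher and 2 as lower regardless of size. *ste11*, the transcription factor of the pathway, was not called (-0.43 ± 0.17, limma adjusted p = 0.065). It was chosen after its values were seen.

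Among flocculins and their regulators, 2 of 12 tested were called, both lower, against 2.93% of all features. *pfl7*, a cell surface glycoprotein gene in the chromosome II stretch, lay at 19.3, 25.4 and 27.7 CPM in *dis2Δ* and at 6.36, 8.72 and 11.6 CPM in *swd22Δ* (-1.36 ± 0.30). Its wild-type libraries, between 7.27 and 11.3 CPM, overlapped those of *swd22Δ*. *mbx2*, a MADS-box transcription factor that turns on flocculin genes, lay between 7.71 and 9.89 CPM in *dis2Δ* and between 1.94 and 6.36 CPM in *swd22Δ*, just past 2-fold (-1.001 ± 0.34, limma adjusted p = 0.030). Its call was lost without *swd22Δ* replicate 2 (-0.65) or 3 (-1.04) or *dis2Δ* replicate 2 (-0.91) or 3 (-1.03), by an adjusted p of 0.05 or more or a smaller difference, and also by edgeR (-0.88), by DESeq2 (-0.89) and with TMM scaling (-0.89).

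**Figure D5:**
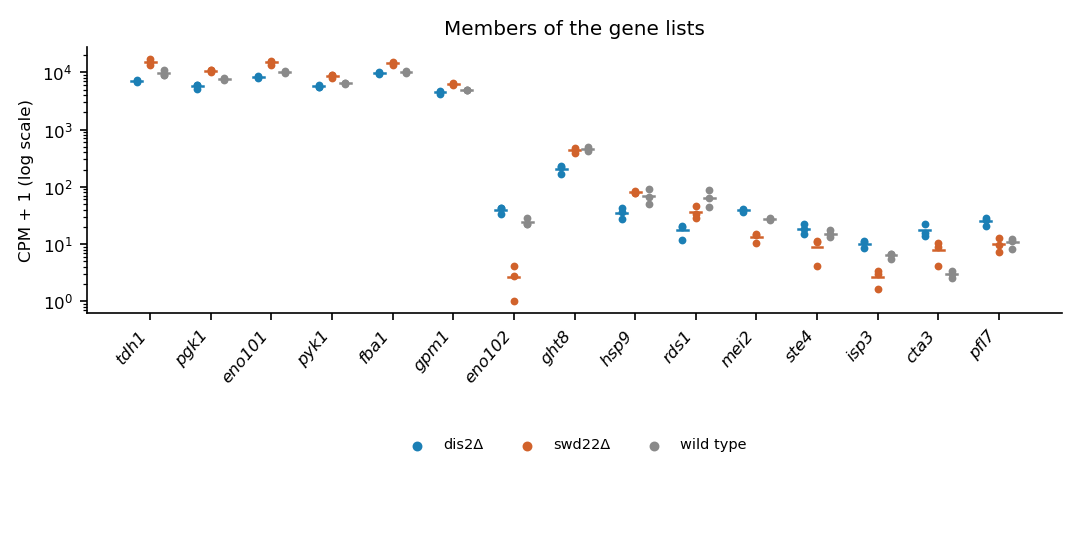
CPM + 1 (log scale) of 15 members of the gene lists in the 3 libraries each of *dis2Δ* (blue), *swd22Δ* (orange) and the wild type (grey), with a bar at each mean. *tdh1* and the other glycolytic genes at the left are higher in *swd22Δ*, and *eno102*, *mei2*, *ste4* and *isp3* are lower.

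A further set of mRNAs, chosen after their values were seen, had wild-type levels nearer to *dis2Δ* and was lower in *swd22Δ*. *rps23*, a ribosomal protein gene, lay at 675, 674 and 668 CPM in *dis2Δ* and at 324, 320 and 344 CPM in *swd22Δ*, with 800 to 822 CPM in the wild type (-1.03 ± 0.10, limma adjusted p = 7.8e-10). *dus2*, a tRNA dihydrouridine synthase gene, lay at 55.9, 56.5 and 67.4 CPM in *dis2Δ* and at 14.6, 10.7 and 13.3 CPM in *swd22Δ* (-2.14 ± 0.14, limma adjusted p = 1.5e-13). *rad31*, of the SUMO pathway, lay between 29.2 and 41.1 CPM in *dis2Δ* and between 4.85 and 8.27 CPM in *swd22Δ* (-2.24 ± 0.18). These libraries did not overlap in any of the 3 genes, and the wild type lay nearer to *dis2Δ* in each. *jmj4* (-1.74 ± 0.20) and *rmt2*, an arginine methyltransferase gene (-1.47 ± 0.13), were alike.

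The called protein-coding features were short in both directions, with a median exon length of 1225 nucleotides for the 103 called lower and 1303 for the 19 called higher, against 1726 for all 4889 tested. The typical difference also depended on length. Its median was -0.22 in the fifth of protein-coding features with the shortest exons and -0.06 in that with the longest. When the trend with exon length was removed from each library, 206 features were called, of which 188 had been called before. Calls were more frequent among features with few reads, with 11.5% of features with a mean of 1 to 5 CPM called, 4.04% of those with 10 to 50 CPM and 0.862% of those with 50 to 500 CPM. Exon length and level moved with the calls, and their part in them was not tested beyond these values.

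The reporter gene was at a similar level in both deletions. *ade6*, whose row combines the reporter and the endogenous allele, lay at 463, 420 and 417 CPM in *dis2Δ* and at 447, 416 and 415 CPM in *swd22Δ*. The log2 difference was -0.02, with a 95% interval of -0.17 to 0.12 (limma adjusted p = 0.85; exact permutation test, two-sided, p = 0.5, where 3 against 3 cannot go below 0.1). The sign turns with scaling by median-of-ratios or TMM, and the interval leaves out a difference of 2-fold. *act1*, actin, was higher in *swd22Δ*, with 4489, 4145 and 4238 CPM against 3397, 3321 and 3244 CPM in *dis2Δ* (0.37 ± 0.08, limma adjusted p = 7.1e-04). *lys4*, homocitrate synthase, lay between 1215 and 1332 CPM in *dis2Δ* and between 1106 and 1169 CPM in *swd22Δ* (-0.18 ± 0.09, limma adjusted p = 0.17).

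Most of the gene lists had no member called by limma at 2-fold, and with 3.84% of all features called, a list of this size would hold few or none at that rate. This was so for 0 of 11 genes of the CPF nuclease and polymerase modules, 0 of 8 of the Set1 complex, 0 of 16 termination factors and CTD kinases and 0 of 21 RNAi and heterochromatin factors. Regardless of size, 1, 1, 3 and 5 of them passed the adjusted p, as did 25.2% of all features. The same held for 0 of 6 tested genes each of phosphate acquisition and thiamine repression, 0 of 15 for iron and copper uptake, 0 of 11 histone genes and 0 of 15 G1/S genes of the MBF factor. Of these, 2, 0, 4, 4 and 9 passed regardless of size. For the 15 MBF genes 8 were lower and 1 higher, with a median of -0.31, and with TMM scaling 5 were lower and 2 higher. No member was called among 9 cell separation genes, 11 nitrogen and amino acid transporters, 10 purine biosynthesis genes and 19 mitotic kinases and checkpoint genes, where 4, 3, 1 and 4 passed regardless of size.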

How the data were processed

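Total RNA-seq of 30 libraries, 3 for each of 10 strains, was used, and the 7 small RNA samples were not. The authors deposited CPM values. To make them, the authors aligned 50-nucleotide single-end reads with STAR (version 2.7.3a) to ASM294 and counted uniquely mapping reads by strand with featureCounts; reads that overlap several genes were left out. In each library 100% of the values were whole multiples of 1 read within 0.01 read. Of 6996 features, 6850 matched the reference (ASM294v3) by identifier.

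The main test was limma (version 3.58.1, R 4.3.3) on log2(CPM + 1). Each of the 10 strains had 1 coefficient, which left 20 residual degrees of freedom, variances were moderated along their trend with the mean level, and p-values were adjusted by Benjamini-Hochberg over the 5913 features. Such log2 differences understate those of features with few reads. DESeq2 (version 1.42.0) and edgeR (version 4.0.16) were run on the recovered reads. The procedure was tested on simulated data. Alternatives covered the pseudocount, filter, scaling, variance model, replicate block, threshold and each left-out library, and 3 alternatives (exon length, features near the deletions, the chromosome II stretch) were chosen after seeing the data.

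Named features were the phosphatase module, *ade6*, *act1* and *lys4*, the 12 largest differences each way among called features whose libraries did not overlap, and up to 6 called members per list; others are said to be chosen later. The members and the 20 lists were chosen with earlier results of these data known. Groups came from the sample labels.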

Additional observations from a re-analysis of the deposited data

How the results depend on the processing

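The number of called features was 227, and 89 with a pseudocount of 4 CPM, 105 with a minimum mean of 10 CPM, 137 by edgeR, 113 by DESeq2, 156 at an adjusted p under 0.01 and 1492 with no minimum change. The other settings gave 178 to 239, and leaving out 1 library gave 199 to 237. The share of higher features was 23.8%, and 34.5% with median-of-ratios, 35.0% with TMM and 50.8% with quantile scaling. Of the 137 features called by edgeR, 126 were among the 227. *ade6* turned from -0.02 to 0.097 with median-of-ratios, 0.104 with TMM, 0.019 with quantile scaling, 0.094 by edgeR and 0.096 by DESeq2, and lay between -0.059 and 0.025 with 1 library left out. None of these *ade6* differences passed the adjusted p. *ssu72*, which was not called, turned from -0.20 to 0.0115 with quantile scaling and lay between -0.47 and 0.0054 with 1 library left out. *pta1*, not called either, turned to 0.0053 with TMM, 0.0037 by edgeR and 0.0066 by DESeq2. The next counts leave out the alternatives that changed a threshold of the call. Of 38 named features that were called, 27 kept the call under every such alternative that tested them. The other 11 lost it under at least 1, *ght7* and *mbx2* under 11 each. At an adjusted p under 0.01, *cta3*, *ght7* and *mbx2* lost it as well. In the chromosome II stretch, 17 to 27 features were called lower under the settings that kept a minimum change, and 0 higher. Replicate numbers do not pair the samples: the deviations of same-numbered libraries correlated at -0.02 for each number. With the replicate block 225 features were called, and 178 in the 6 libraries with the replicate block, against 184 without it. Depth limits features of a few reads, where 3 reads stand for up to 2.91 CPM.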
